A study of Homo sapiens with 6 samples.

Results

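The genes described here encode 10 enzymes of mitochondrial fatty acid beta-oxidation, namely the carnitine palmitoyltransferases CPT1A and CPT2, the acyl-CoA dehydrogenases ACADVL, ACADM and ACADS, the trifunctional protein subunits HADHA and HADHB, the hydroxyacyl-CoA dehydrogenase HADH and the enoyl-CoA isomerases ECI1 and ECI2. They were chosen by gene name, with earlier results of these data known, and all 10 were found among the 62709 genes of the table. The cells were HepG2.2.15, a human hepatocellular carcinoma line made from HepG2 cells, which holds integrated hepatitis B virus genomes and was grown with G418. The wild-type line was kept for 3 days either with YQSHJD, the herbal preparation Yinqi Sanhuang Jiedu Decoction, given as diluted freeze-dried powder at 10% of the medium, or with a control that one label calls physiological saline and another PBS. Polyadenylated RNA was sequenced from 3 libraries per group, called saline 1 to 3 and YQSHJD 1 to 3. Whether the 3 libraries of a group came from separate cultures is not stated in the labels, and the spread that the p-values rest on may therefore be technical. All libraries come from a single hepatoma line.

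Beta-oxidation shortens fatty acids in the mitochondrial matrix and yields acetyl-CoA, which hepatocytes burn in the tricarboxylic acid cycle or turn into ketone bodies. Long-chain acyl groups enter as carnitine esters, made by CPT1A on the outer membrane and turned back into acyl-CoA by CPT2 on the inner membrane. Each turn of the spiral then runs through an acyl-CoA dehydrogenase, a hydratase, a hydroxyacyl-CoA dehydrogenase and a thiolase, and the enoyl-CoA isomerases move the double bonds of unsaturated chains into a place where the spiral can act on them.

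Sequences before the start sites of 4 genes are shown because their genes carry the main results below: HADHA and HADHB both rose and lie head to head, CPT1A had the highest log2 difference of the 10 with the deposited scaling, and ECI1 and ECI2 changed in opposite directions. The sequences are the bases just before each gene's outermost RefSeq start on GRCh38.p14, 250 for each gene, written 5′ to 3′ on the gene's strand. By the gene coordinates given below, which differ from RefSeq's, the stretches of ECI1 and HADHB lie inside the genes. Those of CPT1A and ECI2 do so in part. For HADHB (chr2:26244689-26244938, plus strand) capitals mark the 194 bases that also lie in the window of HADHA on the opposite strand, and the RefSeq start sites of the pair are 307 bases apart.
HADHB: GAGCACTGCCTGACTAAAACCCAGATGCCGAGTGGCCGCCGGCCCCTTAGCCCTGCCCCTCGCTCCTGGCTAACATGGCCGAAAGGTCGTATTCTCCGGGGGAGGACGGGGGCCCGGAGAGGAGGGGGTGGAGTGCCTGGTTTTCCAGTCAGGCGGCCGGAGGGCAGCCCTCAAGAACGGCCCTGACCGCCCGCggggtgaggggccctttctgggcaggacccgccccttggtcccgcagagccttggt
For CPT1A (chr11:68844278-68844527, minus strand), ECI1 (chr16:2251588-2251837, minus strand) and ECI2 (chr6:4135576-4135825, minus strand) capitals mark GC boxes, searched as GGGCGG on both strands.
CPT1A: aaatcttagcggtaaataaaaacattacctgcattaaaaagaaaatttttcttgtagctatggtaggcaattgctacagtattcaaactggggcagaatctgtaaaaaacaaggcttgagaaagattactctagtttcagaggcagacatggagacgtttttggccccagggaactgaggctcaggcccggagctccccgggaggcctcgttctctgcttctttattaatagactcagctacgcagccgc
ECI1: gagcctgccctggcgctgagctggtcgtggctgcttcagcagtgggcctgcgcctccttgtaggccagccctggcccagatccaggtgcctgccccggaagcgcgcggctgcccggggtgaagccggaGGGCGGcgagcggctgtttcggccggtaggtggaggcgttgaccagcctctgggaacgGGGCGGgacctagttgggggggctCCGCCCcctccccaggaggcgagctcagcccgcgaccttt
ECI2: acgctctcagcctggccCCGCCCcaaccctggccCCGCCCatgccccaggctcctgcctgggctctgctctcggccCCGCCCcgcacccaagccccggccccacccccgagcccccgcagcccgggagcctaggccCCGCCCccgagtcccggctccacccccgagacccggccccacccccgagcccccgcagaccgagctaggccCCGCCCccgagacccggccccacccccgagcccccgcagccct
The CPT1A stretch held 0 GC boxes at a GC content of 44.4%, the ECI1 stretch 3 at 72.8% and the ECI2 stretch 5 at 81.6%. The 250 bases before a second RefSeq start of ECI2 held 3 GC boxes at 76.4%, as many boxes as ECI1. For CPT1A no start farther inside the gene was looked at. Over all promoters of the RefSeq table the median GC content of this stretch was 58.0%, and 42.6% of them held at least 1 GC box. The 10 genes had 13 windows of 300 bases in the RefSeq table, 250 before and 50 after a start. None of the 13 held the nuclear receptor hexamer AGGTCA on either strand, which 13.8% of all windows hold, nor the motifs that contain it: its direct repeat AGGTCANAGGTCA (0.0228% of all windows) and the ERR element TCAAGGTCA (0.353%). The NRF1 core motif (5.78% of all windows) was found in 0 of them, and the antioxidant response element core TGACNNNGC (13.3%) in 1, downstream of the second start of ACADVL.

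The libraries held 13370372 to 15615649 reads in genes, a number worked back from FPKM (fragments per kilobase of gene, relative to depth). Hepatocyte markers were high, all 10 of the listed ones were tested, and their summed level was 2909 to 3167 FPKM with saline and 4341 to 5237 with YQSHJD. Of 10 markers of other cell types 6 stayed under 1 FPKM in every library, with PTPRC and COL3A1 at 0, and their summed level, mostly of EPCAM and ACTA2, was 40.3 to 47.5 FPKM with saline and 47.5 to 55.6 with YQSHJD. Mitochondrially encoded genes took 13.5% to 15.7% of the reads with saline and 17.6% to 22.4% with YQSHJD, and the mitochondrial rRNAs 1.92% to 1.96% and 5.60% to 7.01%. Genes of low GC content stood higher and genes of high GC content lower with YQSHJD, most of all in YQSHJD 1. In that library the median gene of at most 40% GC lay 0.41 above the saline mean on the log2(FPKM + 1) scale and the median gene over 60% GC lay 0.55 below it, against 0.13 above and 0.09 below in YQSHJD 3. YQSHJD 1 was the highest YQSHJD library for 6 of the 10 genes and the lowest for the other 4. The part of these library features in the results below was not tested, other than through GC-corrected values, rescaled libraries and values without YQSHJD 1.

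With YQSHJD, 6 of the 10 genes rose, 1 fell and 3 did not pass the test. CPT1A, HADHA, HADHB, ECI2 and ACADM rose by 2.03-fold to 2.39-fold in mean FPKM, ACADVL rose by 1.33-fold, and ECI1 fell to 0.582 of its saline level. CPT2, ACADS and HADH did not pass. All 10 passed the filter on low values, and the FPKM of the groups did not overlap for 8. The test was limma on log2(FPKM + 1) over 10966 genes at a Benjamini-Hochberg adjusted p under 0.05, by which 23.3% of all genes tested were higher, 18.0% lower and 41.4% either; the groups did not overlap for 55.3%. The median log2 difference of the 10 genes was 0.61, beside 0.04 over all genes tested. As the 10 were chosen with earlier results of these data known, these counts and shares are a description, not a test of the set. In bulk RNA, a change in the share of cells that express a gene and a change in RNA per cell cannot be told apart.

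**Figure D1:**
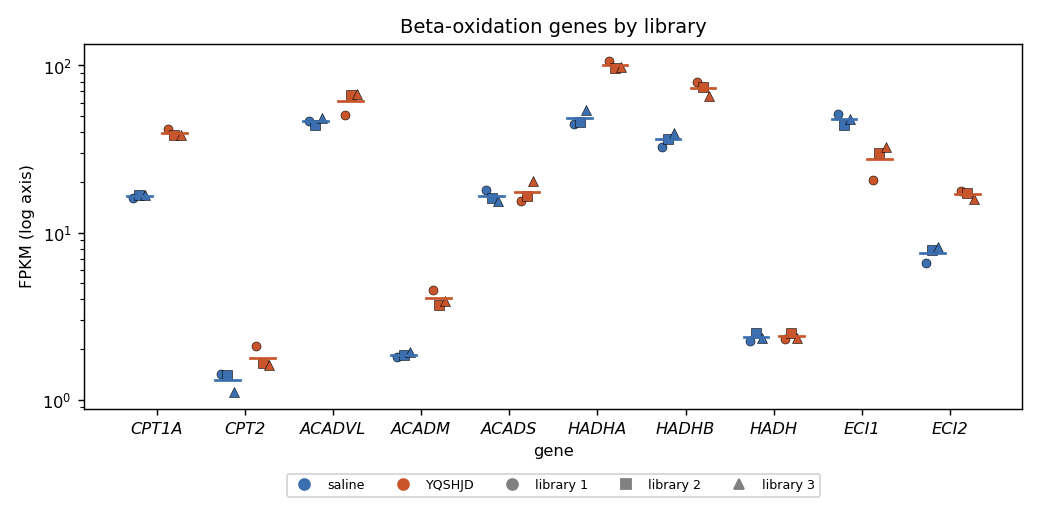
FPKM of the 10 genes on a log axis in each of the 6 libraries, with points for libraries and a short line for each group's mean of 3. The YQSHJD points lie above the saline points for CPT1A, CPT2, ACADVL, ACADM, HADHA, HADHB and ECI2 and below them for ECI1, and the groups overlap for ACADS and HADH.

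CPT1A (ENSG00000110090, chromosome 11, positions 68754620 to 68844410) is the step at which malonyl-CoA holds back fatty acid entry. Its level was 16.2, 16.8 and 16.7 FPKM in saline 1 to 3 and 41.5, 38.6 and 38.5 FPKM in YQSHJD 1 to 3. All YQSHJD libraries lay far above all saline libraries, and the spread within either group was small. This was a log2 difference of 1.21, standard error 0.08 (limma adjusted p = 2.67e-05), from 1622 to 3521 reads per library. CPT2 (ENSG00000157184, chromosome 1, 53196792 to 53214197), its partner on the inner membrane, measured 1.43, 1.40 and 1.11 FPKM with saline and 2.10, 1.65 and 1.61 FPKM with YQSHJD. The CPT2 groups did not overlap, but the log2 difference of 0.27 (standard error 0.12) did not pass the test (limma adjusted p = 0.0975), with only 183 to 273 reads per library. On the reads themselves, limma-voom gave CPT2 a log2 difference of 0.45 that passed (adjusted p = 0.0386), while after GC correction the difference was 0.04. Within each library CPT1A stood 11.3, 12.01 and 15.1 times as high as CPT2 with saline and 19.8, 23.3 and 23.9 times with YQSHJD. The ratio was thus higher in every YQSHJD library, by 0.81 on the log2 scale with a standard error of 0.15.

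The acyl-CoA dehydrogenases take the first step of each turn and differ in the chain length they accept. ACADM (ENSG00000117054, chromosome 1, 75724431 to 75787575), the medium-chain enzyme, measured 1.80, 1.85 and 1.94 FPKM with saline and 4.55, 3.68 and 3.92 FPKM with YQSHJD. The groups were well apart, giving a log2 difference of 0.81, standard error 0.10 (limma adjusted p = 0.000485). ACADVL (ENSG00000072778, chromosome 17, 7217125 to 7225266), the very-long-chain enzyme of the inner membrane, measured 46.3, 44.2 and 48.4 FPKM with saline and 50.7, 66.6 and 67.9 FPKM with YQSHJD. YQSHJD 1 lay just above the saline libraries and the other two far above, and the log2 difference of 0.40 (standard error 0.12, limma adjusted p = 0.0305) was close to the threshold. The ACADVL call was lost under 10 of 22 alternatives, among them TPM rescaling (log2 difference 0.04) and the removal of any 1 library other than YQSHJD 1 (0.32 to 0.43, limma adjusted p 0.0617 to 0.102), and the difference was 0.53 without YQSHJD 1 and 0.61 after GC correction. ACADS (ENSG00000122971, chromosome 12, 120725774 to 120740008), the short-chain enzyme, measured 18.1, 16.1 and 15.6 FPKM with saline and 15.4, 16.5 and 20.3 FPKM with YQSHJD. Its groups overlapped, with a log2 difference of 0.06 (standard error 0.12, limma adjusted p = 0.711), but it passed after GC correction at 0.41 (adjusted p = 0.00264) and stood at -0.29 under TPM rescaling.

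The balance between the dehydrogenases was compared within each library. ACADVL stood 25.8, 23.9 and 25.0 times as high as ACADM with saline and 11.1, 18.1 and 17.3 times with YQSHJD. ACADS stood 10.1, 8.69 and 8.02 times as high as ACADM with saline and 3.38, 4.49 and 5.18 times with YQSHJD. Both ratios were lower in every YQSHJD library, by 0.71 and 1.05 on the log2 scale, with standard errors of 0.23 and 0.20. Their size depends on the gene lengths. Per kilobase of the longest principal transcript the saline means were 96.1 for ACADVL, 22.2 for ACADS and 9.80 for ACADM. ACADM is the lowest of the 3 in GC content (41.0%, against 58.8% for ACADVL and 64.6% for ACADS), and after GC correction the ACADVL to ACADM difference was 0.02 and the ACADS to ACADM difference -0.18.

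HADHA and HADHB are the alpha and beta subunits of the trifunctional protein, which holds the hydratase, long-chain hydroxyacyl-CoA dehydrogenase and thiolase activities for long chains. HADHA (ENSG00000084754, chromosome 2, 26190635 to 26244672) measured 44.8, 45.8 and 54.3 FPKM with saline and 107.0, 96.6 and 97.8 FPKM with YQSHJD. HADHB (ENSG00000138029, chromosome 2, 26243170 to 26290465) measured 32.5, 36.4 and 39.4 FPKM with saline and 79.8, 74.1 and 66.0 FPKM with YQSHJD. Both were higher in every YQSHJD library, with log2 differences of 1.04 and 1.00 and standard errors of 0.10 and 0.11 (limma adjusted p = 0.000135 and 0.000244). The ratio of HADHA to HADHB was 1.38, 1.26 and 1.38 with saline and 1.34, 1.30 and 1.48 with YQSHJD, so the groups overlapped and the log2 difference of the ratio was 0.04 with a standard error of 0.07. After GC correction the ratio was higher with YQSHJD by 0.22 on the log2 scale, at the smallest exact permutation p of 0.1. The gene models of the pair overlap by 1503 bases on opposite strands, and as no source used here gives a strand setting for the counting, part of their reads may be shared. HADH (ENSG00000138796, chromosome 4, 107989714 to 108035241), the soluble hydroxyacyl-CoA dehydrogenase for shorter chains, measured 2.23, 2.50 and 2.35 FPKM with saline and 2.32, 2.51 and 2.36 FPKM with YQSHJD. Its groups overlapped almost completely, with a log2 difference of 0.01, a standard error of 0.09 and an adjusted p of 0.912 by limma, and it stood at -0.29 under TPM rescaling.

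The isomerases moved apart. ECI1 (ENSG00000167969, chromosome 16, 2239402 to 2252300), the mitochondrial isomerase, measured 51.5, 43.9 and 47.6 FPKM with saline and 20.8, 29.8 and 32.7 FPKM with YQSHJD. Every YQSHJD library lay below every saline library, with YQSHJD 1 the lowest, giving a log2 difference of -0.78, standard error 0.16 (limma adjusted p = 0.00549). ECI2 (ENSG00000198721, chromosome 6, 4115693 to 4135597), whose protein is found in mitochondria and peroxisomes, measured 6.59, 7.83 and 8.26 FPKM with saline and 17.6, 17.2 and 15.99 FPKM with YQSHJD. The ECI2 groups were well apart, with a log2 difference of 1.07, standard error 0.10 (limma adjusted p = 0.000144). The ratio of ECI2 to ECI1 was 0.128, 0.178 and 0.174 with saline and 0.849, 0.578 and 0.490 with YQSHJD. It was higher in every YQSHJD library, by 1.97 on the log2 scale with a standard error of 0.28. ECI1 is richer in GC (61.4%) than ECI2 (44.5%), and the difference of the ratio was 1.41 after GC correction.

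Such a ratio within a library does not move with the scaling of the library. Its size depends on the gene lengths of the table, but its log2 difference between the groups does not. By a two-sided exact permutation test of the log2 ratios, 4 of the 5 ratios had p = 0.1, the smallest p that 3 against 3 libraries allow, with an adjusted p of 0.125 over the 5, and the HADHA to HADHB ratio had p = 0.6. The design cannot reach 0.05 by this test.

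**Figure D2:**
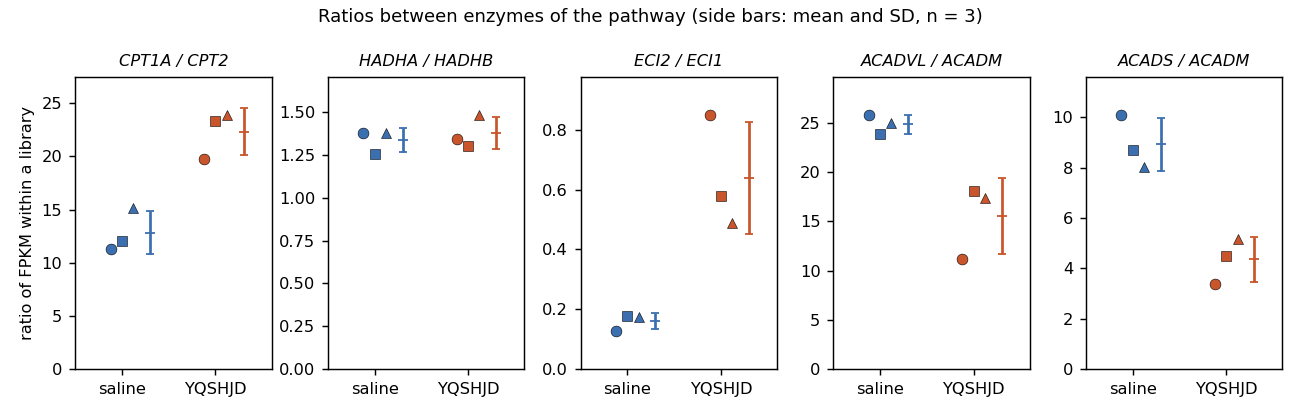
Ratio of FPKM between 2 genes within each library, for 5 pairs, each on its own axis from 0, with the mean and SD of 3 libraries beside the points. The ECI2 to ECI1 ratio lies between 0.128 and 0.178 with saline and between 0.490 and 0.849 with YQSHJD, and the HADHA to HADHB ratio overlaps between the groups.

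Summed over the 10 genes, the level was 221.6, 216.7 and 235.6 FPKM with saline and 341.8, 347.3 and 346.9 FPKM with YQSHJD, which is 1.54 times as high on average; this sum and the shares in it were given no test. ECI1 made up 21.2% ± 1.75 of the sum with saline and 8.02% ± 1.73 with YQSHJD (SD, n = 3 each). HADHA and HADHB made up 21.5% ± 1.43 and 16.1% ± 1.21 with saline and 29.1% ± 1.92 and 21.2% ± 2.17 with YQSHJD, and CPT1A 7.39% ± 0.33 and 11.5% ± 0.61. Relative to the summed FPKM of 17 tricarboxylic acid cycle genes, the sum of the 10 was 0.573, 0.555 and 0.614 with saline and 0.693, 0.689 and 0.699 with YQSHJD, again without overlap.

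In saline the FPKM of the 10 genes ran from 1.31 ± 0.18 for CPT2 to 48.3 ± 5.19 for HADHA (SD, n = 3). HADHA, ECI1 (47.6 ± 3.82) and ACADVL (46.3 ± 2.15) did not differ beyond their spread, nor did ACADS and CPT1A (16.6 ± 1.35 and 16.6 ± 0.32). These levels depend on the gene length of the table, which is 1.26 times (CPT1A) to 6.74 times (HADH) that of the longest principal transcript in GENCODE release 29. Per kilobase of that transcript, ECI1 (99.1) and ACADVL (96.1) stood above HADHB (75.6) and HADHA (68.9) in saline, and HADH, ACADM and CPT2 stayed the lowest at 15.9, 9.80 and 4.28. Differences between groups are not touched by the length, apart from the pseudocount, which weighs more on genes of low FPKM: without a pseudocount the mean FPKM of ACADM differed by 1.12 on the log2 scale.

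Reads of some of these genes can be shared with neighbours. ACADM overlaps RABGGTB on the same strand by 1379 bases, and RABGGTB had 609 to 968 reads per library, more than ACADM with 377 to 808. RABGGTB was itself higher, at a mean of 7.98 FPKM with saline and 11.8 FPKM with YQSHJD. The part of shared reads in the ACADM difference was not tested. ACADVL overlaps DLG4 by 2717 bases and ECI1 overlaps ECI1-AS1 by 1332 bases, both on opposite strands, but these neighbours had at most 69 and 23 reads in a library. CPT2 and CZIB share 99 bases.

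Because all genes leaned with GC content, the 10 genes were set beside genes of like GC. Of all tested genes the median log2 difference was 0.25 at up to 40% GC and -0.29 above 60%. The 1398 genes within 2 percentage points of CPT1A had a median of -0.01, and 19.2% of them were higher. For HADHA these values were 0.04 and 23.0%, for HADHB 0.21 and 36.5%, for ECI2 0.18 and 33.9% and for ACADM 0.24 and 38.7%. Around ECI1 the median was -0.24 and 33.6% of genes were lower. After a smooth GC trend was removed from each library, 7 of the 10 genes were higher and 1 lower (24.9% and 20.0% of all genes tested there). CPT1A then stood at 1.24, HADHA at 1.03, ECI2 at 0.90, HADHB at 0.81, ACADM at 0.59 and ECI1 at -0.51. Over the 10 genes Spearman's rho of GC content with the log2 difference was -0.27, and over 10811 tested genes it was -0.45; genes of a library share its depth and its GC trend.

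**Figure D3:**
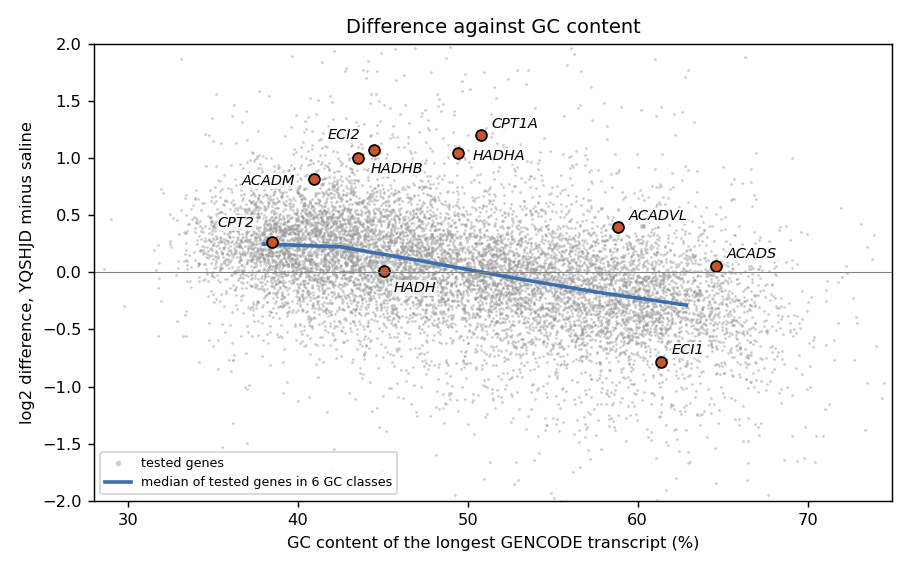
Log2 difference on the log2(FPKM + 1) scale against the gene's GC content, taken from its longest GENCODE transcript, with tested genes as small dots (differences within ±2), their median in 6 GC classes as a line and the 10 genes as large labelled dots. CPT1A, HADHA, HADHB, ECI2, ACADM, ACADVL and ACADS lie above the line, ECI1 below it at -0.78, HADH slightly below it and CPT2 on it.

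Scaling of the libraries also moved all genes together. The median log2 difference over all 10966 genes was 0.04 with the deposited scaling, -0.29 after TPM rescaling and -0.13 after scaling to the reads in genes. The medians of the 10 genes stood above these, at 0.61, 0.36 and 0.43. Under TPM rescaling 5 of the 10 rose, at 0.88 for CPT1A, 0.78 for ECI2, 0.69 for HADHA, 0.66 for ACADM and 0.65 for HADHB, against 7.99% of all genes, and ECI1 fell to -1.15, against 39.6% of all genes lower. The calls of CPT1A, HADHA, HADHB, ECI2, ACADM and ECI1 held under each alternative in which the gene was tested.

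**Figure D4:**
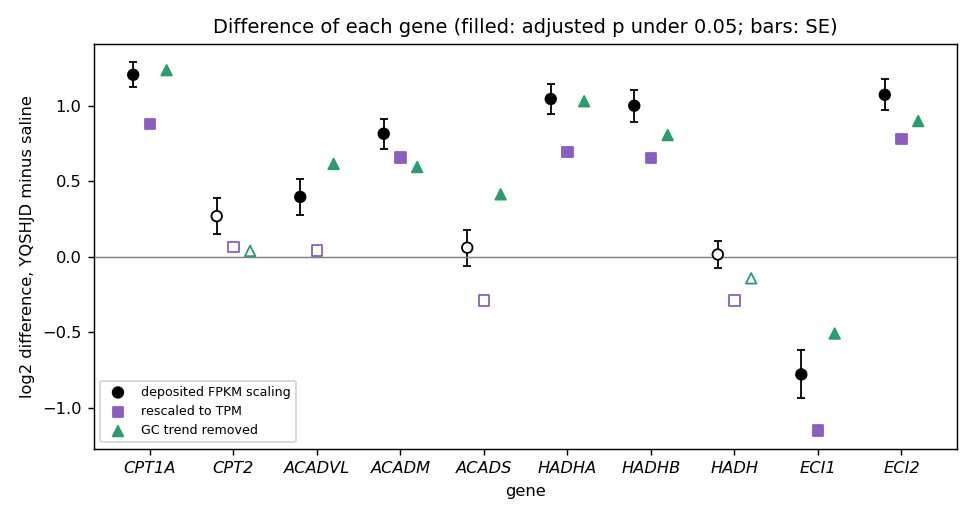
Log2 difference of each gene, YQSHJD minus saline, with the deposited scaling (circles, bars give the limma standard error), after TPM rescaling (squares) and after GC correction (triangles); filled symbols have an adjusted p under 0.05. CPT1A, ACADM, HADHA, HADHB and ECI2 are filled and above 0 in all 3, and ECI1 is filled and below 0 in all 3.

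Genes that bring fatty acids to the pathway rose in part. Beside the counts of this and the following lists, 23.3% of all genes tested were higher and 18.0% lower. These lists, too, were chosen with earlier results of these data known. Under TPM rescaling the shares of all genes were 7.99% and 39.6%. Without saline 1, 1593 of 10703 tested genes were higher and 1105 lower, and without YQSHJD 1, 2571 and 2024 of 10728. Of 14 genes of fatty acid activation and the carnitine shuttle 11 were tested, of which 5 were higher and 0 lower, with a median of 0.23; under TPM rescaling 4 were higher and 2 lower and the median turned to -0.12. Without YQSHJD 1, 6 were higher and 1 lower. ACSL5, which activates long-chain fatty acids, measured 8.65, 9.51 and 9.52 FPKM with saline and 29.3, 27.2 and 27.1 FPKM with YQSHJD. SLC25A20, the carrier that exchanges acylcarnitine for carnitine across the inner membrane and so works between CPT1A and CPT2, measured 10.998, 10.4 and 12.2 FPKM with saline and 26.2, 29.6 and 29.02 FPKM with YQSHJD. In both genes every YQSHJD library lay far above every saline library, with log2 differences of 1.498 and 1.26 (limma adjusted p = 1.13e-05 and 4.24e-05). ACSL1 rose by 0.70 and the very-long-chain acyl-CoA synthetase SLC27A2 by 0.58. CPT1B and CPT1C, the muscle and brain forms of CPT1, had at most 5 reads and 1 read in a library.

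Of 18 listed other matrix enzymes and electron transfer genes, 14 were tested. They held 8 higher and 2 lower, against 23.3% and 18.0% of all genes tested. Their median was 0.52; TPM rescaling left 6 higher and 3 lower (median 0.19), and without saline 1 the counts were 8 and 0, against 9 and 1 without YQSHJD 1. ETFB, a subunit of the flavoprotein that takes electrons from the acyl-CoA dehydrogenases, measured 29.3, 30.6 and 33.0 FPKM with saline and 92.5, 128.0 and 132.4 FPKM with YQSHJD, and rose by 1.88 (limma adjusted p = 3.95e-05). Its partner ETFA rose by 1.04. ACAA2, the soluble thiolase, measured 6.35, 6.39 and 8.46 FPKM with saline and 19.6, 16.4 and 15.9 FPKM with YQSHJD, a rise of 1.19, and the acetoacetyl-CoA thiolase ACAT1 rose by 1.00. ECHS1, the short-chain hydratase, was the most abundant gene of this list with a mean FPKM of 253.7 ± 3.95 (SD, n = 3) with saline, and 338.6 ± 10.3 with YQSHJD, a rise of 0.41 (limma adjusted p = 0.00253) that was not called under TPM rescaling (0.05). ETFDH, which passes those electrons to ubiquinone, was under the filter, at 0.168, 0.283 and 0.235 FPKM with saline and 0.809, 0.682 and 0.796 FPKM with YQSHJD; without the filter its log2 difference was 0.52 (limma adjusted p = 0.021).

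Peroxisomal beta-oxidation shortens very long and branched chains outside mitochondria. Its genes, 12 tested of 15 listed, held 8 higher and 1 lower, against 23.3% and 18.0% of all genes tested. Their median was 0.54; TPM rescaling left 4 higher and 2 lower (median 0.26), and without saline 1 the counts were 7 and 0. The transporter ABCD3 rose by 1.02, the thiolase and sterol carrier SCP2 by 0.91, HSD17B4 by 0.88 and EHHADH, both multifunctional enzymes of that pathway, by 0.84. ECI2 protein is also found in this organelle.

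Among the genes that control the pathway 14 of 18 were tested, of which 5 were higher and 2 lower, with a median of 0.17; under TPM rescaling 2 were higher and 6 lower and the median turned to -0.14. Without saline 1, 2 were higher and 1 lower. Over all genes tested, 23.3% were higher and 18.0% lower, and 7.99% and 39.6% under TPM rescaling. PPARA, the fatty acid receptor that drives beta-oxidation genes in liver, measured 3.41, 3.44 and 3.07 FPKM with saline and 7.57, 6.34 and 6.37 FPKM with YQSHJD. Each YQSHJD library held more than each saline library, and the log2 difference was 0.85 (limma adjusted p = 0.00041). PRKAA2, a catalytic subunit of AMPK, rose by 0.63, and the coactivator PPARGC1A rose by 0.44 from a low level of 0.890 ± 0.087 FPKM (SD, n = 3; limma adjusted p = 0.0182, and 0.0984 under TPM rescaling). PPARD, a relative of PPARA, fell by 0.71 and the mitochondrial deacetylase SIRT3 fell by 0.52. ACACB, which makes the malonyl-CoA that inhibits CPT1A, stood at 0.04 (limma adjusted p = 0.748).

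Of 14 listed ketogenesis genes and PPARA targets outside the pathway, 8 were tested. They held 6 higher and 0 lower, against 23.3% and 18.0% of all genes tested. Their median was 0.56, and TPM rescaling left 4 higher and 0 lower (median 0.28). On the log2(FPKM + 1) scale CREB3L3 rose by 2.03, PLIN2 by 1.98, ANGPTL4, an inhibitor of lipoprotein lipase, by 1.32 and the fatty acid binding protein FABP1 by 0.73. ANGPTL4 was low, at a mean of 0.620 FPKM with saline and 3.07 FPKM with YQSHJD, so the pseudocount understates its difference the most of these 4 genes. PDK4, a classical PPARA target, had 4 to 18 reads in a library. All 17 tricarboxylic acid cycle genes were tested, and 13 were higher and 0 lower at a median of 0.39. TPM rescaling left 1 higher and 1 lower at a median of 0.03, and 9 were higher without saline 1. Its 4 largest rises were those of DLD at 0.78, IDH3G at 0.58, IDH3A at 0.54 and SUCLG1 at 0.54. No test of a difference between these lists and the 10 genes was made.

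**Figure D5:**
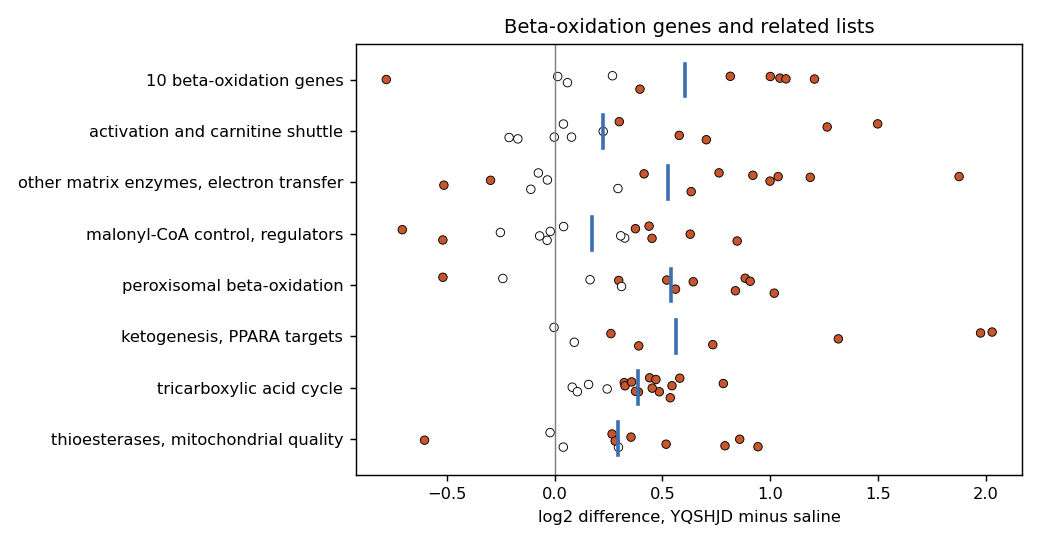
Log2 difference, YQSHJD minus saline, of the tested genes of the 10 and of 7 related lists, with filled points for an adjusted p under 0.05 and a line for each list's median. The 10 genes have a median of 0.61 and the tricarboxylic acid cycle genes one of 0.39, with all of the latter at or above 0.08.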

How the data were processed

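FPKM values per gene were deposited by the authors in 1 table, whose column names match the 6 libraries. Another 6 columns of values matched no sample and were not used, and 1 line was empty. CASAVA 2.19 is named in the submitters' processing notes; aligner, counter, strand setting, build and annotation were not given in the sources used here. FPKM times gene length gave whole multiples of 1 read for 100% of values (tolerance 0.01 reads). The depth behind FPKM was 1.03 to 1.05 times the reads in genes with saline and 0.885 to 0.923 times with YQSHJD. Coordinates are the table's; all 10 identifiers were in GENCODE release 29 (GRCh38), which also gave GC content for 98.6% of tested genes. Genes that reached 1 FPKM in 3 or more libraries were tested with limma 3.58.1 in R 4.3.3 on log2(FPKM + 1). The fit used a trend and robust prior, and its two-sided p-values were Benjamini-Hochberg adjusted. Only this limma step was tried on simulated reads, which held no GC trend. The GC correction and the ratio tests were not simulated. The pseudocount of 1 understates differences of low genes. Promoter sequences came from the RefSeq table. The exact permutation tests used SciPy 1.17.1, figures matplotlib 3.10.9. Alternatives are given at the end; scaling to nuclear gene reads, the block with GC correction and the GC box search were added after seeing the data. All 10 genes are named, and of each related list the 4 largest differences that passed, with ACAA2, ECHS1, ETFDH, SLC25A20, PPARA and PPARGC1A; others are examples chosen after their values were seen, and some listed genes are not reported here. The 10 genes and the lists were chosen with earlier results of these data known.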

Additional observations from a re-analysis of the deposited data

How the results depend on the processing

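Under 22 alternatives 5 to 7 of the 10 genes were higher and 1 lower. With the replicate number as a block, 3707 of all genes were called, 6 of the 10 higher and 1 lower; the block did not change a call among the 10. The deviations of same-numbered libraries from their group means had r = -0.24, -0.11 and -0.04. With 3 libraries per group these values are tied to each other. They cannot tell whether same-numbered libraries shared a culture or a batch. Of all genes tested 4536 were called, 2957 without a filter, 2482 at an adjusted p under 0.01, 7378 with array weights (whose estimation did not converge) and 2698 to 4717 with 1 library left out (2698 without saline 1, 2995 without saline 2). The summed level of the 10 was 1.54 times as high with YQSHJD, 1.20 under TPM rescaling, 1.34 when scaled to gene reads, 1.43 when scaled to nuclear gene reads and 1.48 by median-of-ratios scaling. ACADS turned to -0.29, -0.13 and -0.043 under the first 3 of these scalings and ranged from -0.050 to 0.14 with 1 library left out. HADH turned to -0.29, -0.13, -0.062 and -0.021 under the 4 scalings, to -0.0040 under quantile normalization and to -0.14 after GC correction, with or without the block, and ranged from -0.013 to 0.044 with 1 library left out. The ACADVL to ACADM ratio turned to 0.021 after GC correction, and the HADHA to HADHB ratio ranged from -0.015 to 0.077 with 1 library left out and was 0.22 (exact p = 0.1) after GC correction. The cause was not tested. A filter at 5 FPKM removed CPT2, ACADM and HADH. CPT2 rests on the fewest reads of the 10.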

Other observations

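Other mitochondrial genes that stand outside fatty acid oxidation also differed. Over all genes tested, 23.3% were higher and 18.0% lower, and 7.99% and 39.6% under TPM rescaling. Of 11 tested genes of acyl-CoA thioesterases, protein folding and import, 7 were higher and 1 lower (median 0.30 on the log2 scale), against 3 and 1 under TPM rescaling (median -0.02) and 4 and 1 without saline 1. VDAC1, the main channel of the outer membrane, rose by 0.94, and the matrix chaperonins HSPD1 and HSPE1 rose by 0.86 and 0.79 (limma adjusted p = 0.000166, 0.000772 and 0.000289). LONP1, the matrix protease, fell by 0.60 (limma adjusted p = 0.00974). HSPD1 and HSPE1 lie beside each other, and reads may be shared between them.

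Some genes tied to the pathway lay under the filter on low values. FGF21, a fasting hormone of the liver, measured 1.02, 0.482 and 1.09 FPKM with saline and 0.172, 0.124 and 0.107 FPKM with YQSHJD, with 2 to 24 reads per library. Every YQSHJD library lay below every saline library, and without the filter its log2 difference was -0.70 (limma adjusted p = 0.0376). ACACA, the cytosolic acetyl-CoA carboxylase, was listed at 0.413, 0.709 and 0.647 FPKM with saline and 0.0893, 0.316 and 0.773 FPKM with YQSHJD, so its groups overlapped.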
